A study of Mus musculus with 15 samples.

Results

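Enteroendocrine cells are the hormone-producing cells of the intestinal epithelium, and the 32 genes described here are their peptide hormones, the enzymes of serotonin synthesis, the proteins of their secretory granules, the transcription factors of their lineage and 3 of their nutrient or irritant sensors. The list was drawn up by name, with earlier results of these data known. The shares of members set beside those of all genes are therefore descriptions and carry no test. Each member was taken as the array's transcript cluster that carries its symbol alone, and the cluster with the highest mean where a symbol had several. In this way 31 of the 32 members were found among 19938 named genes. Fev was not analysed here. Of the 31, 22 exceeded in at least 1 group the median of the whole table, 4.91 on the log2 scale, and were tested among 11784 genes that did so.

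RNA of isolated small intestinal epithelium from adult mice was measured on Affymetrix Mouse Gene 1.0 arrays, with 3 arrays in each of 5 groups and 15 in all. The groups were wild-type CD1 ileum, wild-type CD1 jejunum, ileum of animals labelled only as control, ileum of a Gata4 conditional knockin (cKI) and jejunum of a Gata4 conditional knockout (cKO). Gata4 encodes a zinc-finger transcription factor present in the upper small intestine and at low level in the ileum, so the design asks what its gain in ileum and its loss in jejunum do to the epithelium. The sources used here do not give the Cre driver, the alleles, the strain of the control, cKI and cKO animals or a jejunal control of the cKO. Nor do the labels tie arrays to separate animals, and a p-value here therefore reflects array-to-array spread, which may be technical. Precision is limited by the number of arrays.

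Enteroendocrine cells arise from crypt progenitors that switch on Neurog3, and then Neurod1, Insm1, Pax4, Pax6, Nkx2-2, Isl1 and Rfx6. Mature cells store hormones in dense-core granules with chromogranins, and classically different hormones belong to different lengths of the gut: GIP and CCK to the upper small intestine, PYY, GLP-1 (from Gcg) and neurotensin to the distal gut, and ghrelin chiefly to the stomach. In bulk epithelium, fewer cells of a type and less RNA per cell cannot be told apart. Enteroendocrine cells are also a small minority of these cells, so each value is a whole-epithelium signal.

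The library checks came first. Gata4 itself stood at 5.60 ± 0.34 (log2 signal, mean ± SD, n = 3) in wild-type ileum and 9.53 ± 0.13 in wild-type jejunum. It was 6.82 ± 0.36 in control ileum and 8.21 ± 0.21 in cKI ileum, higher by 1.38 (limma with Benjamini-Hochberg adjustment over all genes tested, adjusted p = 0.00453). In the jejunum labelled cKO it was 9.84 ± 0.11, which was 0.31 above wild-type jejunum (adjusted p = 0.322). The transcript cluster summarises probes along the gene and the position of the deleted part is not given in the sources used here, so this signal does not check the cKO label, and every direction drawn from those arrays rests on the label. The mean of 11 pan-epithelial genes lay between 10.32 and 10.84 on all arrays. Markers of stroma and smooth muscle, whose 12 tested genes were averaged per array, ranged over 5.59 to 6.01 in wild-type ileum, 4.82 to 5.08 in wild-type jejunum, 5.79 to 6.97 in control ileum, 5.41 to 5.84 in cKI ileum and 5.11 to 5.39 in cKO jejunum.

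Because the series alters a GATA factor, the promoters of 5 hormone genes on which the results turn are shown with their GATA motifs in capitals. The motif was searched on both strands in 4 spellings. One pair of them was AGATAA with its variant AGATAG. The other pair was TGATAA with its variant TGATAG. Each window is RefSeq sequence of build GRCm38.p6, written 5′ to 3′ along the gene from 250 bases before to 50 bases after the start, and the most upstream start was taken where a gene has several.
Gip: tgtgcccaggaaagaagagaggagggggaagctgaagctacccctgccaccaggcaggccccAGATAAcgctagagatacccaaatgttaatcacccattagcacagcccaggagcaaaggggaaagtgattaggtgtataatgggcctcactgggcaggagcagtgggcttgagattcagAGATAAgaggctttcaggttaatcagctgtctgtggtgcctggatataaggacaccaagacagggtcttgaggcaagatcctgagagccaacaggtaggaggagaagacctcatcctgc
Cck: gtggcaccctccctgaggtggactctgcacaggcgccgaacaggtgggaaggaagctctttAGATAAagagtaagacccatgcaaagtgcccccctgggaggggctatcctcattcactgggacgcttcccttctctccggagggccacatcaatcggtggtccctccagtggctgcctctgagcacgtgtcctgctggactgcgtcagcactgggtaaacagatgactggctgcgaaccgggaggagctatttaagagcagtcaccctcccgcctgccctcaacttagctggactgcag
Nts: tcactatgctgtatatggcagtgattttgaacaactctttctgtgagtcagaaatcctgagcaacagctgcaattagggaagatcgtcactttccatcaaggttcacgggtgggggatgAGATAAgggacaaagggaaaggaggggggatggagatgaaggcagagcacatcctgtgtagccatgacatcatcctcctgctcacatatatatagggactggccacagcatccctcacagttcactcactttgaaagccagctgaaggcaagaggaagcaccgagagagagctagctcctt
Pyy: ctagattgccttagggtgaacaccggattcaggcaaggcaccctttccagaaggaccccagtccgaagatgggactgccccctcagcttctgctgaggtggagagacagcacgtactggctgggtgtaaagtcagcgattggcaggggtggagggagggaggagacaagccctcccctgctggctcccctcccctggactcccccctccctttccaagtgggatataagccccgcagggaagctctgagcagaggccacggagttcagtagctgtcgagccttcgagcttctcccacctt
Ghrl: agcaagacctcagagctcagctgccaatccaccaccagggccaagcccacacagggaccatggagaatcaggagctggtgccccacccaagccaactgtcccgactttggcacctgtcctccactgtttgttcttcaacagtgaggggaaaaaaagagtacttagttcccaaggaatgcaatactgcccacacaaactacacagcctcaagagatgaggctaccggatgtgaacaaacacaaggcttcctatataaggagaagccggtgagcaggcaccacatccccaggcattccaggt
The Gip window, chr11:96024295-96024594 on the plus strand, held AGATAA 2 times, its first bases lying 188 and 69 bases before the start. The Cck window, chr9:121495645-121495944 on the minus strand, held it once, 189 bases before the start. The Nts window, chr10:102490369-102490668 on the minus strand, held it once, 131 bases before the start. None of the 4 spellings occurred in the Pyy window, chr11:102107783-102108082 on the minus strand, or in the Ghrl window, chr6:113719862-113720161 on the minus strand, while CTATCA, the other strand of TGATAG, occurred in the windows of 2 of the other starts of Ghrl. Of all 32851 promoter windows of this length, 29.8% held at least 1 of the spellings, 11.2% held AGATAA and 1.14% held it 2 or more times. Among members, 28 of the 32 had a window, and 14 of their 36 windows (38.9%) held a spelling. A match is a run of letters and not evidence of binding.

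Between the wild-type regions, jejunum had more Gip, Cck, Ddc and Tph1 transcript and ileum had more Pyy, Gcg and Tac1. This is 4 members higher and 3 lower in jejunum out of 22 (31.8%), beside 21.3% of all genes called in this comparison, 13.4% higher and 7.91% lower. No member among the 6 tested granule proteins and the 5 tested lineage factors was called by limma, and 1 of each had an unadjusted p under 0.05.

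Gip encodes glucose-dependent insulinotropic polypeptide, the incretin of K cells. It stood at 5.57, 5.43 and 6.41 in wild-type ileum and at 8.68, 8.77 and 8.45 in wild-type jejunum. All jejunal arrays lay above all ileal arrays, and the difference was 2.83 ± 0.31 (log2, ± SE), 7.1-fold, with adjusted p = 1.06e-05. Cck encodes cholecystokinin, which I cells release on fat and protein. Its values were 5.10, 4.79 and 5.10 in ileum and 6.75, 7.17 and 6.34 in jejunum. Again the regions did not overlap, with a difference of 1.76 ± 0.20, 3.38-fold (adjusted p = 1.24e-05).

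Ddc, the decarboxylase that completes serotonin synthesis and is also active in absorptive cells, stood at 8.01, 7.79 and 8.16 in ileum and 10.14, 10.01 and 10.04 in jejunum. The jejunal arrays were closely grouped and 2.08 ± 0.18 higher, 4.22-fold (adjusted p = 1.28e-06). Tph1, the rate-limiting enzyme of serotonin synthesis in enterochromaffin cells, stood at 5.12, 4.91 and 5.45 in ileum and 5.87, 6.24 and 5.39 in jejunum. Here 1 jejunal array fell below the highest ileal array, and the difference was 0.67 ± 0.22, 1.6-fold (adjusted p = 0.0368). The Tph1 call was near the threshold. It was lost without replicate 1 or 2 of wild-type ileum (adjusted p = 0.0927 and 0.146) or of wild-type jejunum (0.099 and 0.186), in the fit of the 6 arrays alone, without and with the block (0.0583 and 0.0747), and with the stromal covariate (0.223). In these fits the difference was 0.47 to 0.69, and the block over all arrays kept the call (0.0449).

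The genes higher in ileum were the L-cell hormone genes Gcg and Pyy, and Tac1, a transmitter gene of enterochromaffin cells. Tph1, which also belongs to enterochromaffin cells, went the other way. Gcg, the proglucagon gene that yields GLP-1, stood at 8.00, 7.62 and 8.23 in ileum and 6.41, 7.10 and 6.06 in jejunum. It was lower in every jejunal array, by 1.43 ± 0.29, 2.69-fold (adjusted p = 0.00194). Pyy, the satiety peptide made in the same cells, stood at 7.56, 6.81 and 7.51 in ileum and 5.64, 5.86 and 5.39 in jejunum. The groups were separate again, with jejunum lower by 1.66 ± 0.27, 3.17-fold (adjusted p = 0.000333). Tac1, the precursor of substance P, stood at 7.01, 8.25 and 7.68 in ileum and 4.17, 5.44 and 3.82 in jejunum. The jejunal mean was below the level filter, so the difference of -3.17 ± 0.55 (adjusted p = 0.000662) is given without a fold.

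Stromal markers moved with the ileal hormones, 8 of the 12 being lower in jejunum. With the stromal mean of each array as covariate, an alternative added after the data were seen, the difference became -0.79 for Pyy (adjusted p = 0.0773) and -0.91 for Gcg (0.178), and Gip, Cck, Ddc and Tac1 kept their calls. Tac1 and the granule genes are also made by enteric neurons. Of 13 neuronal and glial markers on the array, 1 (Ret) was tested, at 4.58 to 5.73 on the 15 arrays. Its difference was -0.32 in jejunum against ileum, the direction of Tac1, and it was not called. The other markers stayed below the level filter, among them Elavl4 and Tubb3, with no group mean above 2.98 and 3.46. The part of neurons in the difference of Tac1 was not tested.

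The remaining hormones did not pass the test between regions. Ghrl, the ghrelin gene, stood at 5.73, 5.58 and 5.83 in ileum and 6.41, 6.63 and 5.84 in jejunum, a difference of 0.58 ± 0.21 (adjusted p = 0.0592). Nts, encoding neurotensin of N cells, stood at 6.60, 5.86 and 6.62 in ileum and 6.47, 6.78 and 5.86 in jejunum, and its difference of 0.01 had a 95% interval of -0.56 to 0.58. For neurotensin, then, the regions overlapped fully. Sst, the somatostatin of D cells, stood at 6.86, 7.05 and 6.86 in ileum and 7.52, 7.42 and 7.09 in jejunum, 0.42 ± 0.24 apart (adjusted p = 0.256). Sct, the secretin gene of S cells, stood at 6.78, 6.13 and 6.44 in ileum and 6.40, 6.39 and 6.07 in jejunum, -0.17 ± 0.17 apart (adjusted p = 0.548). Although Sst did not pass here, its regions did not overlap, and in the fit of these 6 arrays alone with the replicate number as a block it was called (adjusted p = 0.0401), as was Neurog3 (0.0206). The 6 arrays without the block gave 0.0504 and 0.0603, and the block over all 15 arrays gave 0.258 and 0.0727. Over the 22 tested members, arrays of the regions did not overlap for 9 (40.9%), beside 40.3% of all genes.

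**Figure D1:**
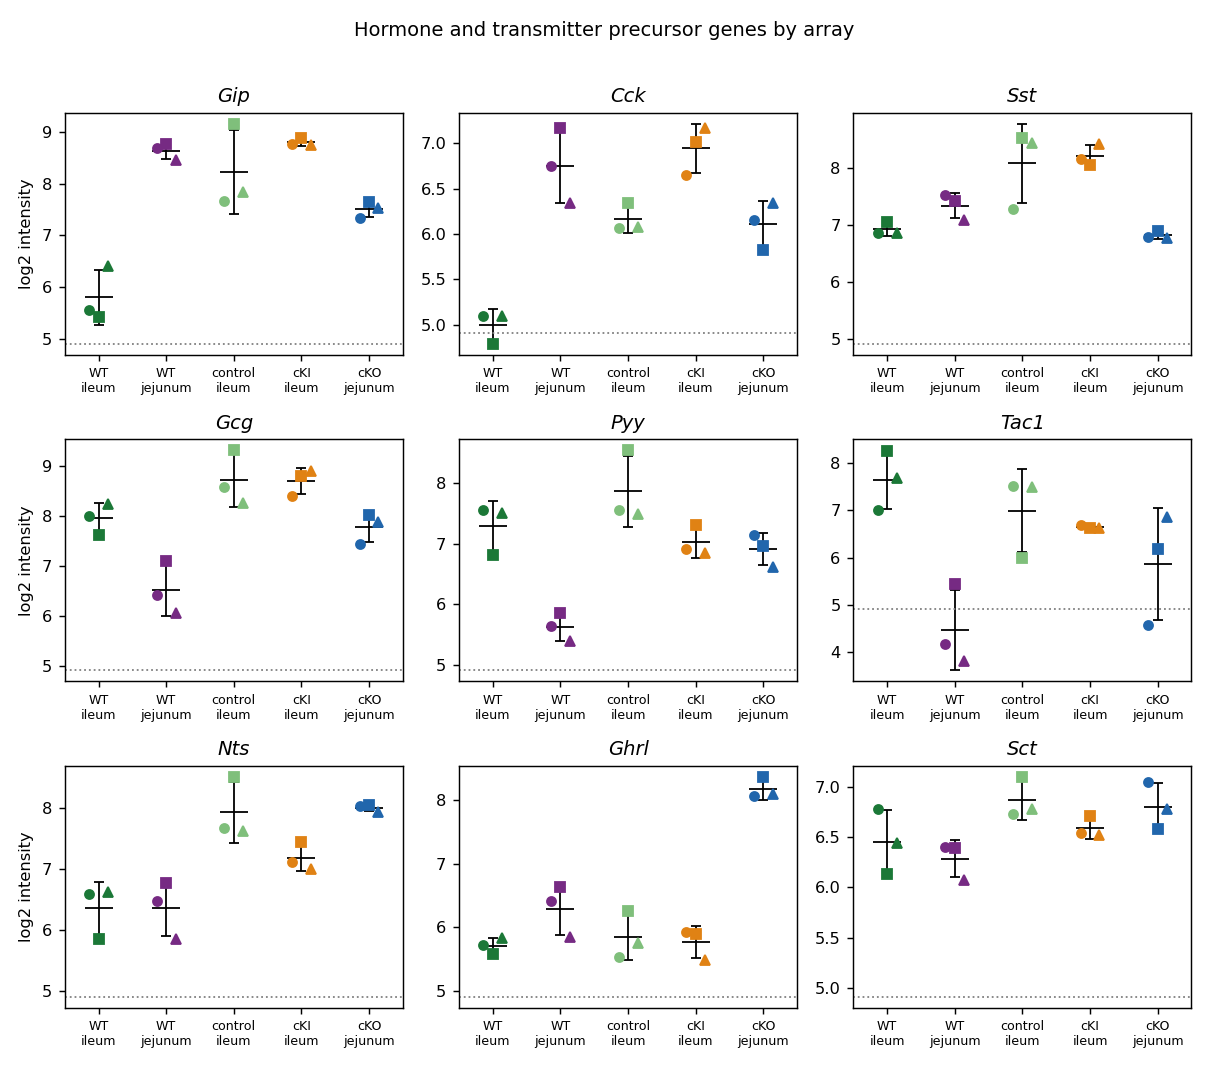
Log2 signal of each hormone gene on each of the 15 arrays, by group. Circles, squares and triangles are replicates 1, 2 and 3, bars are mean ± SD (n = 3), and the dotted line is the level filter at 4.91. Ghrl stands out in cKO jejunum at 8.06 to 8.36, while no other array exceeds 6.63 for that gene.

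In the jejunum labelled cKO, transcripts of 4 hormones were higher than in wild-type jejunum, Ghrl (3.66-fold), Nts (3.11-fold), Pyy (2.42-fold) and Gcg (2.39-fold), and Gip, Cck and Ddc were lower. The share of members called, 7 of 22 or 31.8%, stood beside 12.8% of all genes. In the higher direction it was 18.2% beside 5.17%, and in the lower direction 13.6% beside 7.65%. The only jejunal reference was wild-type CD1, so loss of Gata4 cannot be told apart from a difference of strain or colony.

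Ghrelin gave the largest difference among the members. Ghrl stood at 8.06, 8.36 and 8.09 in cKO jejunum, against 6.41, 6.63 and 5.84 in wild-type jejunum. Every cKO array lay above every other array of the series, and the difference was 1.87 ± 0.21 with a 95% interval of 1.43 to 2.31 (adjusted p = 2.76e-05). Neurotensin followed. Nts was nearly uniform in cKO jejunum, at 8.03, 8.05 and 7.94, and lay above the wild-type jejunal values by 1.64 ± 0.27 (adjusted p = 0.000801). As with ghrelin, this gene had not passed the test between wild-type jejunum and ileum.

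The L-cell hormones were higher as well. Gcg stood at 7.44, 8.01 and 7.88 in cKO jejunum, 1.25 ± 0.29 above wild-type jejunum (adjusted p = 0.00853). Pyy stood at 7.14, 6.96 and 6.62 there, 1.28 ± 0.27 above (adjusted p = 0.00487). For these hormones no cKO array overlapped a wild-type jejunal array. Ghrl, Nts, Pyy and Gcg were called in each of the 17 alternatives run for this comparison, as was Ddc among the lower genes. Of the 12 stromal markers 1 was called higher in cKO jejunum, and all 12 had a positive difference (median 0.37). The 3 mast cell markers had a median difference of 1.86, with 1 called higher. Markers of T and NK cells (median 0.18) and of B and plasma cells (-0.01) had none called. Apart from the stromal covariate, the part of these cells in the hormone differences was not tested.

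Of the lower genes, Gip stood at 7.34, 7.65 and 7.53 in cKO jejunum, below every wild-type jejunal array, and had fallen by 1.13 ± 0.31 on the log2 scale, 2.19-fold (adjusted p = 0.0262). Ddc stood at 9.61, 8.75 and 9.34, also below every wild-type array, by 0.83 ± 0.18 or 1.78-fold (adjusted p = 0.00706). Cck stood at 6.16, 5.83 and 6.34, overlapping the lowest wild-type array at its top, and was lower by 0.64 ± 0.20 or 1.56-fold (adjusted p = 0.0452). Both the Gip and the Cck call were near the threshold. Gip lost its call without replicate 1 or 2 of wild-type jejunum (adjusted p = 0.0813 and 0.092) or without replicate 1, 2 or 3 of cKO jejunum (0.0759, 0.0524 and 0.0536), while its difference stayed at -1.05 to -1.20. Cck lost its call in 11 of the 17 alternatives, including those without replicate 1 or 2 of wild-type jejunum (0.11 and 0.211) or of cKO jejunum (0.0745 and 0.177), where its difference was -0.43 to -0.67.

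The other hormones and the serotonin enzyme stayed short of the threshold. Sct stood at 7.05, 6.58 and 6.78 in cKO jejunum, above every wild-type jejunal array by 0.52 ± 0.17 (adjusted p = 0.0561). Tac1 was scattered there, at 4.57, 6.19 and 6.87, a difference of 1.40 ± 0.55 (adjusted p = 0.119, and 0.0177 with the stromal covariate). The neuronal marker Ret was 0.56 higher in cKO jejunum, with an unadjusted p under 0.05 and no call. Sst stood at 6.79, 6.90 and 6.77, a difference of -0.52 ± 0.24 (adjusted p = 0.19). Secretin and somatostatin thus had arrays that did not overlap between the groups without a call. Such separation was seen for 8 of 22 members (36.4%), beside 27.2% of all genes. Tph1 stood at 5.21, 5.62 and 5.84 and differed by -0.28 (adjusted p = 0.466).

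No granule protein and no lineage factor was called by limma between cKO and wild-type jejunum, and of the 6 and 5 tested 0 had an unadjusted p under 0.05. Chga, the chromogranin A gene used as a general marker of these cells, stood at 7.76, 8.11 and 7.24 in wild-type jejunum and 7.85, 8.38 and 7.92 in cKO jejunum. Chgb stood at 7.24, 7.63 and 6.94 in the former and 7.49, 7.92 and 7.66 in the latter. The groups overlapped for both chromogranins, with differences of 0.35 ± 0.23 (adjusted p = 0.392) and 0.42 ± 0.20 (0.209). Neurog3, the factor that starts the lineage, stood at 5.68, 5.86 and 5.84 in wild-type jejunum and 5.38, 5.73 and 5.10 in cKO jejunum, -0.39 ± 0.21 apart (adjusted p = 0.272).

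**Figure D2:**
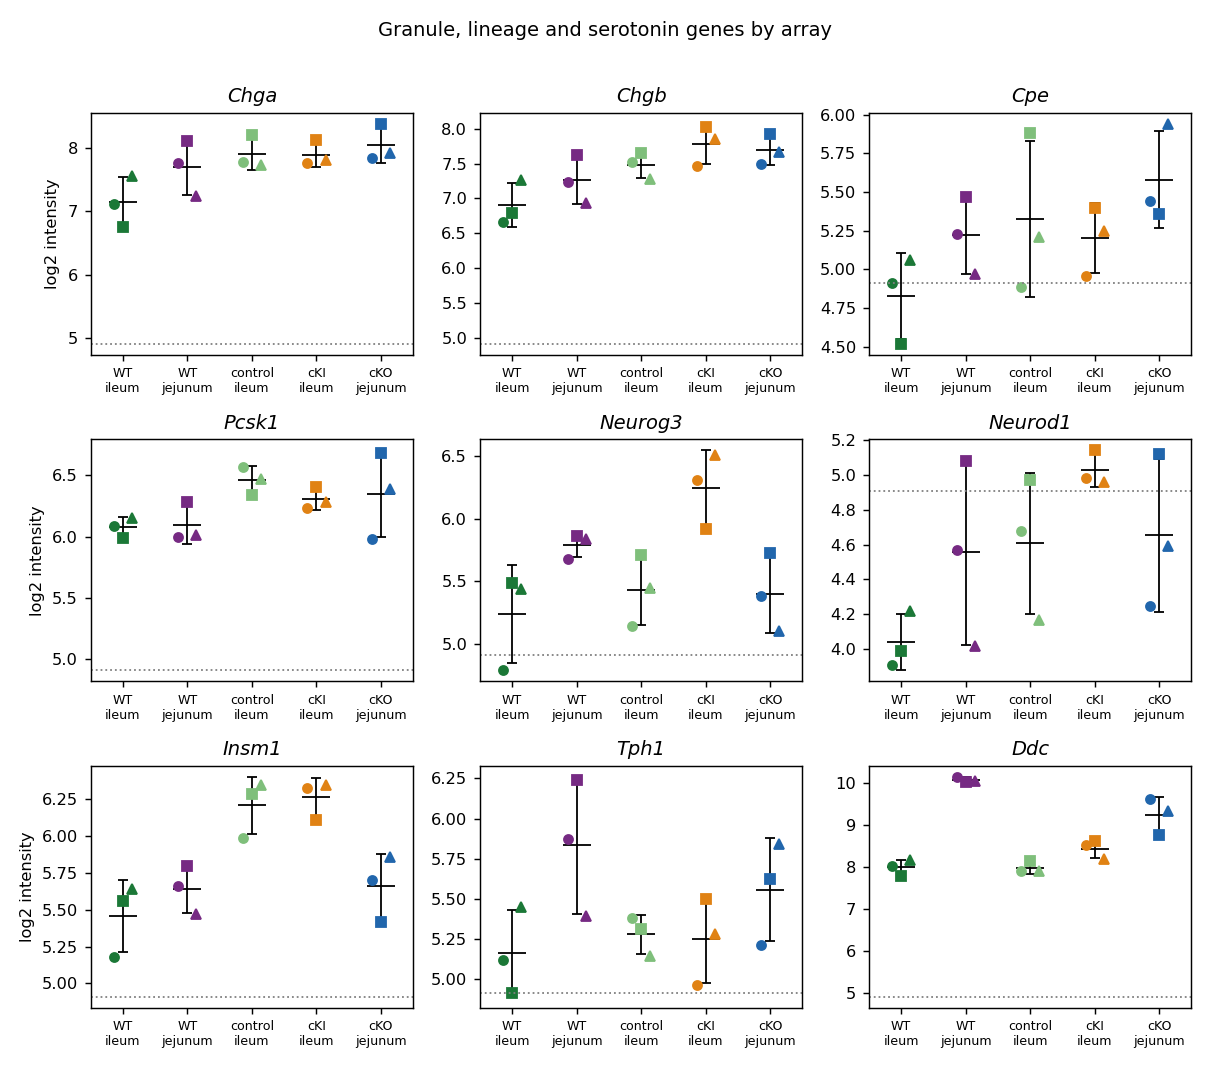
Log2 signal of 9 tested genes of serotonin synthesis, granules and lineage on each of the 15 arrays, by group. Circles, squares and triangles are replicates 1, 2 and 3, bars are mean ± SD (n = 3), and the dotted line is the level filter at 4.91. Ddc separates wild-type jejunum (10.01 to 10.14) from wild-type ileum (7.79 to 8.16), and Neurog3 has its highest values in cKI ileum (5.92 to 6.51).

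In the ileum with the Gata4 knockin, no member passed the limma test against control ileum, and 0.764% of all genes did, 0.339% higher and 0.424% lower. At an unadjusted p under 0.05 there were 5 members (22.7%), beside 15.3% of all genes, and these were Cck, Neurog3, Ddc, Pyy and Nts. With array weights, 3 members were called, all higher. The tests here were not paired, and with the replicate number as a block no member was called either.

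Cck stood at 6.07, 6.34 and 6.08 in control ileum and 6.65, 7.02 and 7.17 in cKI ileum. The knockin arrays were all above the control arrays, by 0.79 ± 0.20 with a 95% interval of 0.36 to 1.21 (adjusted p = 0.0878). Neurog3 stood at 5.14, 5.71 and 5.45 in control ileum and 6.31, 5.92 and 6.51 in cKI ileum. It too separated the groups, by 0.81 ± 0.21 with an interval of 0.36 to 1.27 (adjusted p = 0.0956). Ddc stood at 7.90, 8.15 and 7.90 in control ileum and 8.51, 8.61 and 8.18 in cKI ileum, 0.45 ± 0.18 apart (adjusted p = 0.272), again without overlap.

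Pyy and Nts lay on the other side. Pyy stood at 7.56, 8.54 and 7.49 in control ileum and 6.92, 7.31 and 6.84 in cKI ileum, a difference of -0.84 ± 0.27 with an interval of -1.41 to -0.27 (adjusted p = 0.169). Nts stood at 7.67, 8.51 and 7.62 in control ileum and 7.11, 7.44 and 7.01 in cKI ileum, a difference of -0.74 ± 0.27 with an interval of -1.31 to -0.18 (adjusted p = 0.221). The knockin arrays lay below the control arrays for both genes. Arrays did not overlap for 7 of 22 members (31.8%), beside 20.9% of all genes, the others being Sct (6.73, 7.10 and 6.78 against 6.54, 6.71 and 6.52) and Pcsk1n on the lower side. Markers of stroma and of lymphocytes were mostly lower in cKI than in control ileum as well, while 2 of 3 mast cell markers had a positive difference (median 0.31). Of the 12 stromal markers 8 had an unadjusted p under 0.05, and 2 of these, Pdgfrb and Vim, were called lower, by 0.78 and 1.05 on the log2 scale. The 7 tested markers of T and NK cells all had an unadjusted p under 0.05 with a median difference of -1.17 and none called, their array means ranging over 6.48 to 7.25 in control and 5.08 to 6.37 in cKI ileum. The 8 markers of B and plasma cells had a median difference of -0.78, with 4 under an unadjusted p of 0.05 and 1 called lower, at 4.93 to 6.61 in control and 4.98 to 5.12 in cKI ileum. With the stromal covariate the difference was -0.15 for Pyy, -0.21 for Nts and -0.02 for Sct, and it was 0.88 for Cck, 0.96 for Neurog3 and 0.61 for Ddc, with no member called. The part of the lymphocyte markers in these differences was not tested.

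The other hormones did not pass at an unadjusted p under 0.05. Gip stood at 7.67, 9.15 and 7.83 in control ileum and 8.77, 8.88 and 8.74 in cKI ileum, with the highest value on a control array, and its difference of 0.58 ± 0.31 had an interval of -0.09 to 1.24. Ghrl stood at 5.53, 6.25 and 5.76 in control ileum and 5.93, 5.90 and 5.48 in cKI ileum, a difference of -0.07 with an interval of -0.51 to 0.37. Gcg stood at 8.58, 9.31 and 8.25 against 8.40, 8.79 and 8.90, and differed by -0.02 ± 0.29. None of these hormones separated the groups. Sst (7.29, 8.53 and 8.44 against 8.16, 8.05 and 8.43) and Tac1 (7.51, 5.99 and 7.49 against 6.69, 6.62 and 6.64) also overlapped, and Chga differed by 0.00 with an interval of -0.50 to 0.50.

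**Figure D3:**
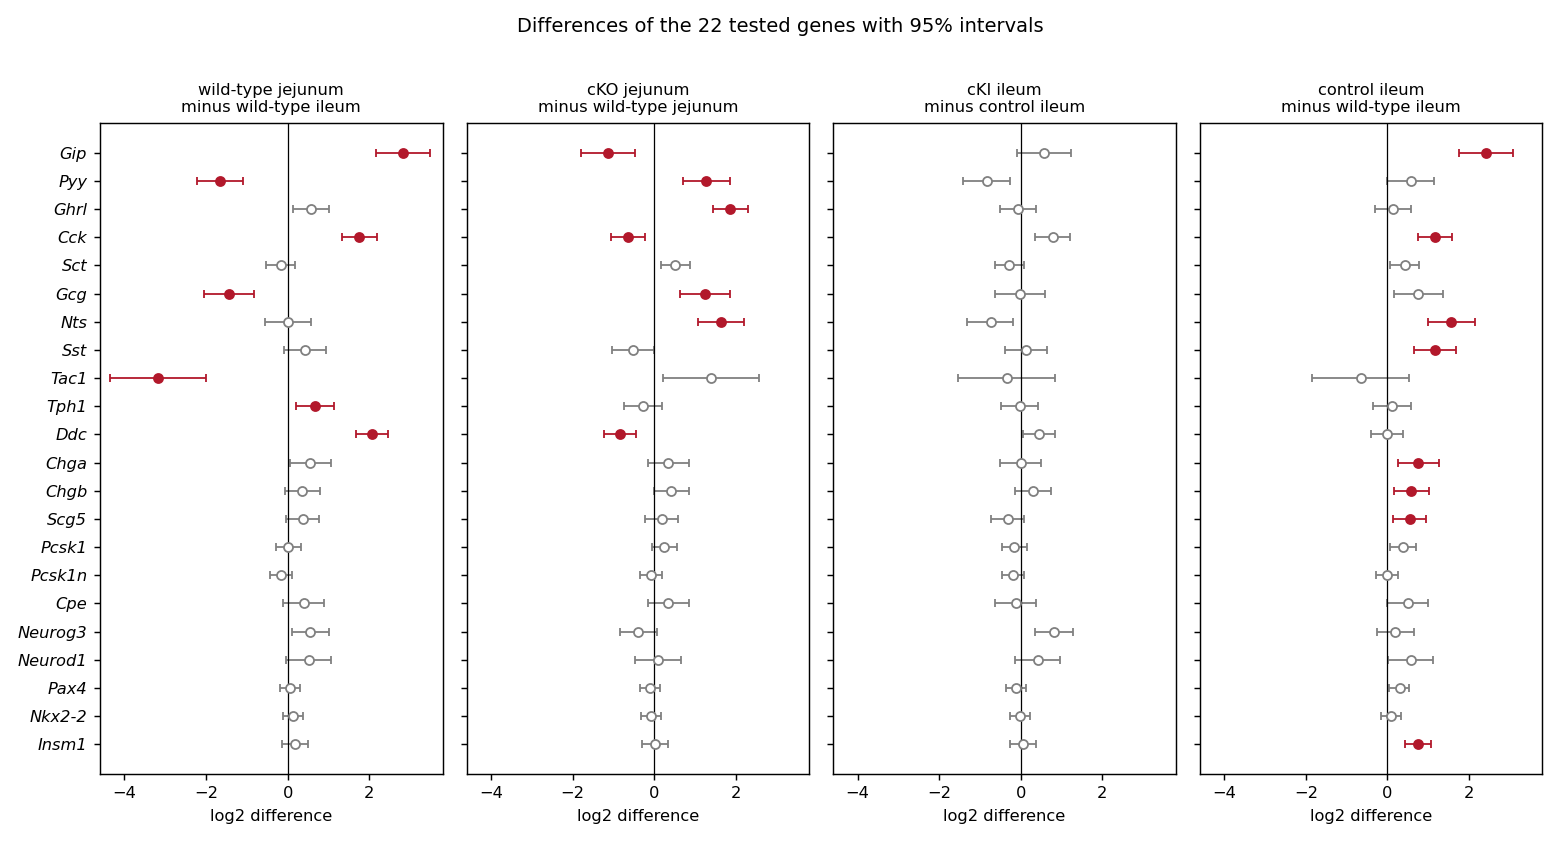
Log2 difference of each tested member in each main comparison, with its 95% interval from the limma fit over all 15 arrays. Filled red points were called at an adjusted p under 0.05 and open points were not. Between cKI and control ileum no point is red, while in cKO jejunum Ghrl, Nts, Pyy and Gcg lie to the right and Gip, Cck and Ddc to the left of 0.

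The gain in ileum and the loss in jejunum share no array, and they were combined as the mean of cKI minus control ileum and wild-type jejunum minus cKO jejunum. On this contrast 4 members were higher where the label gives more Gata4 (Gip, Cck, Ddc and Neurog3) and 4 were lower (Nts, Pyy, Ghrl and Sct). That is 36.4% of the tested members, beside 11.4% of all genes, and 18.2% in each direction beside 6.44% and 4.98%. In the cKO part of this contrast, strain and colony again cannot be told apart from loss of Gata4.

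On the higher side were Gip, by 0.85 ± 0.22 (adjusted p = 0.0211), and Cck, by 0.71 ± 0.14 (0.00397). Ddc was higher by 0.64 ± 0.13 (adjusted p = 0.00481) and Neurog3 by 0.60 ± 0.15 (0.0176). On the lower side Nts gave -1.19 ± 0.19 (adjusted p = 0.000832) and Pyy -1.06 ± 0.19 (0.00202). Ghrl gave -0.97 ± 0.15 (adjusted p = 0.000513) and Sct -0.40 ± 0.12 (0.0425). Neurog3 and Sct, which had passed in neither comparison alone, passed in their mean. Gcg (-0.64, adjusted p = 0.0559) and Tac1 (-0.87, 0.167) did not pass. Gcg was called with the replicate block over all arrays (0.0483) or over the arrays compared (0.0414), after quantile normalization (0.0383), and without replicate 2 of wild-type jejunum (0.0205), replicate 3 of control ileum (0.032) or replicate 1 of cKO jejunum (0.0453). Tac1 was called with array weights (adjusted p = 0.0486) and without replicate 1 of cKO jejunum (-1.20, 0.0373). The neuronal marker Ret was called lower on this contrast (-0.47), and its part in the Tac1 difference was not tested.

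Cck, Ddc and Ghrl kept their calls in all 23 alternatives of this contrast, and Sct in 12. Sct lost its call without replicate 1, 2 or 3 of wild-type jejunum, replicate 2 or 3 of control ileum, or replicate 1 or 3 of cKI ileum or of cKO jejunum (adjusted p from 0.0547 to 0.0973). Of the 12 tested stromal markers 4 were lower on it, and the covariate for their mean took Nts to -0.80 (adjusted p = 0.0519), Pyy to -0.55 (0.103), Sct to -0.21 (0.559), Gcg to -0.33 (0.61) and Neurog3 to 0.71 (0.0753). It took Tac1 to -1.74, which was then called (adjusted p = 0.0354). Gip lost its call without replicate 2 of wild-type jejunum (adjusted p = 0.0523) or replicate 3 of control ileum (0.0575).

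The test of whether the knockin and the sign-turned knockout differ called 1 of 22 members, higher (4.55%), and none lower by limma, beside 2.94% of all genes, 1.2% higher and 1.74% lower. At an unadjusted p under 0.05 there were 4 members (18.2%), beside 16.7% of all genes. The called member was Ghrl, whose separate differences were -0.07 in cKI ileum and 1.87 in cKO jejunum, and whose difference was 1.80 (adjusted p = 0.00409) and was called in each of 23 alternatives. For Gcg the difference between the comparisons was 1.24 (adjusted p = 0.126) and for Nts 0.89 (0.244). Strain and colony cannot be told apart from loss of Gata4 in this test either.

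**Figure D4:**
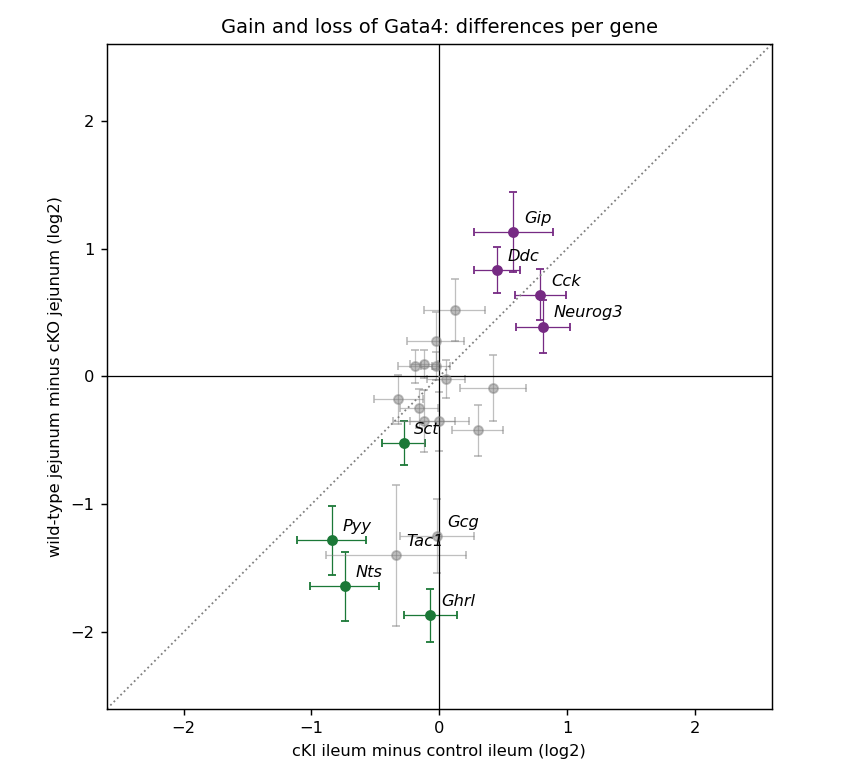
Log2 difference of each tested member in cKI minus control ileum (horizontal axis) and in wild-type minus cKO jejunum (vertical axis), with SE as bars and equality dotted. Purple and green points were called higher and lower in the combined contrast. Ghrl lies far from the dotted line, at -0.07 on the horizontal axis.

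Set against wild-type CD1 ileum, cKO jejunum differed in several members. Of 22 members 7 were higher (31.8%) and none lower by limma, beside 5.1% of all genes called in either direction, 3.26% higher and 1.84% lower. An unadjusted p under 0.05 was reached by 11 members, beside 19.7% of all genes. Ghrl was 5.48-fold above wild-type ileum (2.45 ± 0.21, adjusted p = 9.84e-06), and Gip was still 3.25-fold above it (1.70 ± 0.31, 0.0055). Nts was 3.13-fold higher (adjusted p = 0.00258), Ddc 2.37-fold (0.00135) and Cck 2.17-fold (0.00449). Chga (0.91, adjusted p = 0.0373) and Chgb (0.78, 0.0376) were called as well, and each lost the call when replicate 1 or 2 of wild-type ileum was left out (Chga 0.0942 and 0.173, Chgb 0.131 and 0.146). Among further single-array losses, Chga was lost without replicate 1, 2 or 3 of cKO jejunum (0.0531, 0.114 and 0.0628) and Chgb without replicate 2 or 3 of it (0.11 and 0.0796). Gcg (-0.17, adjusted p = 0.793) and Pyy (-0.39, 0.46) did not pass. Tac1 differed by -1.77 ± 0.55 without overlap but did not pass either (adjusted p = 0.0863). It was called with the stromal covariate (-2.70, 0.0127), without replicate 3 of cKO jejunum (-2.27, 0.0411) and in the fit of the arrays compared with the replicate block (0.0181), and not with the block over all arrays (0.0953). This comparison shares its cKO arrays with that against wild-type jejunum. Of the 7 higher members, Gip (2.41), Nts (1.57), Cck (1.17), Chga (0.76) and Chgb (0.58) were also called higher in control than in wild-type ileum. Ghrl and Ddc were not called there. Both of these comparisons use the same wild-type ileal arrays, so their shared calls are not separate observations. Region, knockout and source of the animals cannot be told apart between cKO jejunum and wild-type ileum.

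Ileum with the knockin differed from wild-type jejunum in 8 of 22 members, 6 higher and 2 lower, which is 36.4% beside 41.8% of all genes, and by direction 27.3% beside 25.5% and 9.09% beside 16.3%. The members' share was thus no larger than the background. Gcg was 4.51-fold higher in cKI ileum (adjusted p = 4.09e-05), Pyy 2.63-fold (0.000811), and Ddc 3.09-fold lower (1.11e-05). Sst (0.87), Nts (0.82), Insm1 (0.62) and Tac1 (2.18, no fold) were also higher, and Tph1 (-0.59, adjusted p = 0.0399) was lower. Nts lost its call without replicate 3 of wild-type jejunum (adjusted p = 0.115) or replicate 2 of cKI ileum (0.0806), and Tph1 without replicate 1 or 2 of wild-type jejunum (0.0944 and 0.19) or replicate 1 or 3 of cKI ileum (0.159 and 0.0791). Gip (0.16, adjusted p = 0.707) and Cck (0.19, 0.455) did not pass, with 95% intervals of -0.50 to 0.83 and -0.23 to 0.62. With the stromal covariate Nts (0.33, adjusted p = 0.395), Sst (0.51, 0.185) and Tph1 (-0.60, 0.121) lost their calls.

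The ileal control sets were themselves unlike, and this bounds any comparison across sets of animals. The knockin was compared with the set labelled control, whereas cKO jejunum had only wild-type CD1 jejunum as its reference. Between the ileal sets Nts differed by 1.57, Gcg by 0.76, Pyy by 0.57 and Ghrl by 0.13. Control ileum exceeded wild-type ileum in 8 of 22 members (36.4%) and was lower in none, by limma, beside 27.9% of all genes in either direction, 19.3% higher and 8.61% lower. An unadjusted p under 0.05 was reached by 14 members (63.6%), beside 39.8% of all genes. The median difference over tested members was 0.52, against 0.08 over all genes tested. Markers of some other cell types were also higher in control ileum. The median difference was 2.26 for 3 mast cell markers (1 called higher), 0.88 for 7 of T and NK cells (1 called), 0.40 for 12 of stroma (3 called higher and 2 lower), 0.38 for 6 of Paneth cells (2 called) and 0.37 for 8 of B and plasma cells (2 called). Apart from the stromal covariate, their part in the members' differences was not tested.

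Gip was 5.32-fold higher in control than in wild-type ileum (2.41 ± 0.31, adjusted p = 8.8e-05). Nts was 2.98-fold higher (adjusted p = 0.000627), Cck 2.24-fold (0.000619) and Sst 2.24-fold (0.00278). Insm1, a zinc-finger factor of endocrine differentiation, stood at 5.18, 5.56 and 5.64 in wild-type ileum, at 5.99, 6.29 and 6.35 in control ileum and at 6.33, 6.11 and 6.35 in cKI ileum. It was 1.68-fold higher in control than in wild-type ileum (adjusted p = 0.00231), and in wild-type jejunum (5.66, 5.80 and 5.47) and cKO jejunum (5.70, 5.42 and 5.86) it was near its wild-type ileal values. Strain, colony and other features of these sets cannot be told apart.

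The granule genes contributed 3 of the 8. Chga stood at 7.11, 6.76 and 7.56 in wild-type ileum and 7.78, 8.20 and 7.74 in control ileum, 0.76 ± 0.23 apart (adjusted p = 0.0253). Chgb stood at 6.66, 6.79 and 7.27 and at 7.53, 7.65 and 7.28, 0.58 ± 0.20 apart (adjusted p = 0.0457). Scg5, a chaperone of a prohormone convertase, stood at 4.76, 4.12 and 4.23 and at 4.84, 4.69 and 5.22, 0.55 ± 0.19 apart (adjusted p = 0.0451), at the edge of the level filter. Scg5 overlapped between the sets and the chromogranins did not. Without single arrays these calls fell away, Chga without replicate 1 or 2 of wild-type ileum (0.0644 and 0.117) or replicate 2 of control ileum (0.103), Chgb without replicate 1 or 2 of either (0.161 and 0.132, 0.103 and 0.14), and Scg5 without replicate 2 or 3 of wild-type ileum (0.172 and 0.135) or replicate 1 or 3 of control ileum (0.0691 and 0.183). With the stromal covariate none of them was called (0.142, 0.157 and 0.124), at differences of 0.55, 0.49 and 0.51. Ddc (0.00, adjusted p = 0.989) and Ghrl (0.13, 0.67) did not differ detectably. The other group values of the chromogranins were 7.76, 8.12 and 7.81 for Chga and 7.47, 8.03 and 7.85 for Chgb in cKI ileum, and those of Scg5 were 4.81, 4.73 and 4.70 in wild-type jejunum, 4.67, 4.70 and 4.40 in cKI ileum and 5.22, 4.98 and 4.56 in cKO jejunum. Tph1 stood at 5.38, 5.31 and 5.14 in control ileum and 4.96, 5.50 and 5.28 in cKI ileum.

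Chga and Chgb were called in control ileum and in cKO jejunum against wild-type ileum, and in no other comparison of the main tests. Each hormone was therefore also expressed per array relative to the mean of Chga and Chgb, as a description without a test. Such a value is a log2 difference and is compared only within a gene. Ghrl stood at -1.31 ± 0.24 in wild-type ileum, -1.19 ± 0.09 in wild-type jejunum, -1.85 ± 0.24 in control ileum and -2.07 ± 0.34 in cKI ileum, but at 0.30 ± 0.09 in cKO jejunum. Gip stood at -1.22 ± 0.19 in wild-type ileum and 1.15 ± 0.23 in wild-type jejunum, and cKO jejunum lay between at -0.37 ± 0.13. Ghrelin in cKO jejunum and GIP in wild-type ileum were thus set apart from the other groups on this scale too. Cck was -0.73 ± 0.03 in wild-type jejunum and -1.76 ± 0.49 in cKO jejunum, and it was -1.53 ± 0.09 in control and -0.89 ± 0.21 in cKI ileum. Pyy was -1.86 ± 0.15 in wild-type jejunum and -0.97 ± 0.38 in cKO jejunum, and 0.17 ± 0.39 in control against -0.82 ± 0.15 in cKI ileum. Nts was -1.12 ± 0.10 in wild-type jejunum and 0.13 ± 0.23 in cKO jejunum, and 0.24 ± 0.31 in control against -0.65 ± 0.16 in cKI ileum. Gcg was -0.96 ± 0.17 in wild-type jejunum and -0.09 ± 0.17 in cKO jejunum, and 1.02 ± 0.33 in control against 0.85 ± 0.19 in cKI ileum. Gip was 0.52 ± 0.63 in control and 0.95 ± 0.18 in cKI ileum. For Cck, Pyy and Nts the cKI and cKO values lay on opposite sides of their references. The means of Gip, Ghrl and Gcg did so too, but their control and cKI arrays overlapped.

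**Figure D5:**
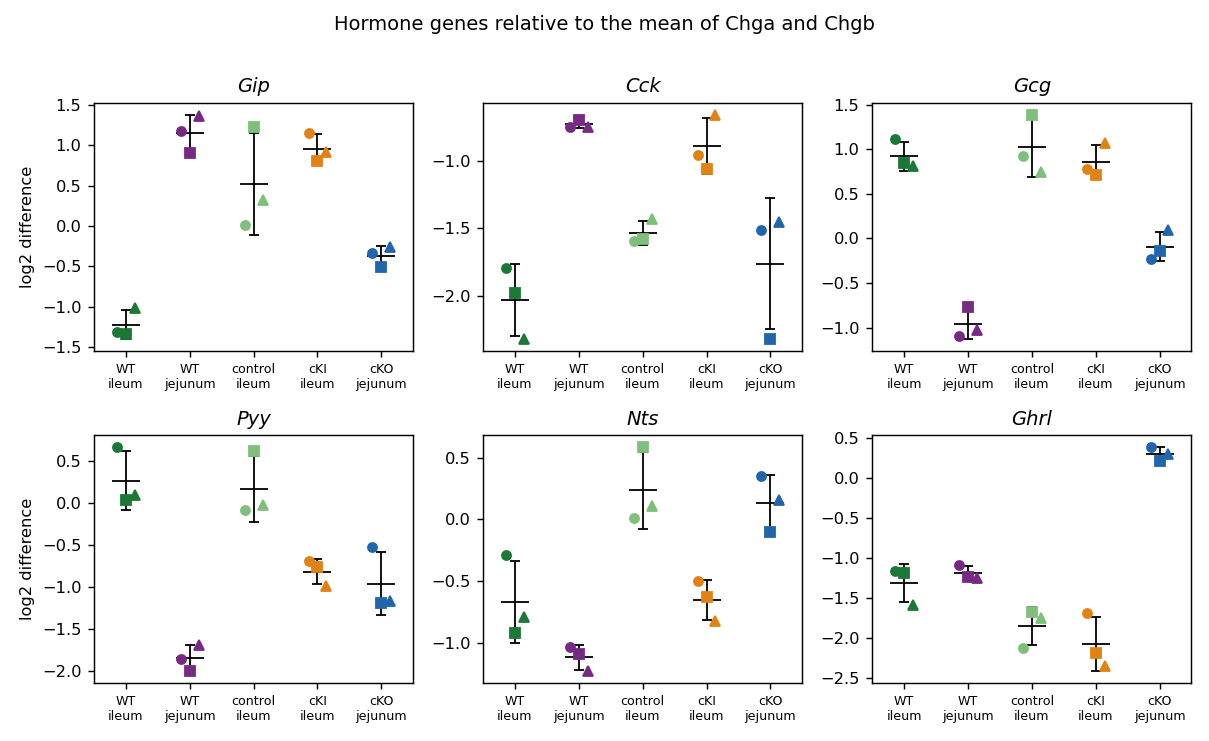
Hormone signal relative to the mean of Chga and Chgb on the same array (log2 difference), by group. Points are the 15 arrays and bars are mean ± SD (n = 3). Ghrl is highest in cKO jejunum, at 0.30 ± 0.09, against -2.07 to -1.19 for the means of the other groups.

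Within groups, many members moved together from array to array. After removal of each group's mean, Chga and Chgb correlated with r = 0.86 over the 15 arrays, where both values of a point share the array and its normalization, and Chga correlated with Nts (0.85), Gcg (0.84), Neurod1 (0.83), Ghrl (0.80), Tph1 (0.77), Gip (0.72) and Pyy (0.71). Scg5 (-0.03), Ddc (0.03), Pax4 (0.03), Insm1 (0.09), Tac1 (0.10), Nkx2-2 (0.14), Neurog3 (0.17) and Sst (0.22) hardly followed Chga, and Pcsk1n (-0.51) went against it. For Chga the median over the 21 other tested members was 0.52, with 11 above 0.5. Over all 11783 other tested genes it was 0.08, with 7.39% above 0.5. For Neurog3 the median was 0.02 over members, with 1 above 0.5, and 0.02 over all genes, with 6.53% above 0.5. These correlations describe these arrays and carry no test. Control ileum replicate 2 was the highest of its group for Gip, Pyy, Gcg, Nts and Chga.

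Of the lineage factors, Neurog3, Neurod1, Insm1, Pax4 and Nkx2-2 passed the level filter. Neurod1 stood at 3.91, 3.99 and 4.22 in wild-type ileum and at 4.98, 5.14 and 4.96 in cKI ileum, with group means of 4.56 to 4.65 elsewhere. It was called in no comparison of the fit over all arrays without weights. Its mean exceeded the level filter in cKI ileum only (5.03), so both wild-type regions (4.04 in ileum, 4.56 in jejunum) lay below it. Between them Neurod1 was called with array weights (0.63, adjusted p = 0.0385) or without replicate 3 of wild-type jejunum (0.79, 0.0425). In cKI ileum against wild-type jejunum it was called without replicate 2 of wild-type jejunum (0.73, 0.0394). Neurog3 stood at 4.79, 5.49 and 5.44 in wild-type ileum. Pax4 had group means of 4.61 to 4.94 and Nkx2-2 of 5.02 to 5.15. Pax4 was 0.30 higher in control than in wild-type ileum without overlap (95% interval 0.05 to 0.54, adjusted p = 0.0685), and was called with array weights (0.40, 0.00499) or without replicate 1 of control ileum (0.37, 0.0434). The prohormone convertase gene Pcsk1 had group means of 6.07 to 6.46, its inhibitor Pcsk1n of 5.63 to 5.86, and the carboxypeptidase gene Cpe of 4.83 to 5.58. None was called in the fit over all arrays without weights, block or covariate. With the stromal covariate Cpe was called in wild-type jejunum against ileum (1.01, adjusted p = 0.0352) and in cKO jejunum against wild-type ileum (1.13, 0.0153). Array weights called Pcsk1 in control against wild-type ileum (0.36, 0.0175). Some other alternatives also called Cpe or Pcsk1.

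The other 9 members on the array stayed below the level filter in every group and were not tested. They were the granins Scg2 (lowest, median and highest array 4.11, 4.42 and 4.80) and Scg3 (3.66, 4.06 and 4.65), the factors Pax6 (3.85, 4.31 and 4.91), Isl1 (3.49, 4.45 and 4.86), Rfx6 (3.72, 4.57 and 5.24) and Etv1 (3.99, 4.39 and 4.89), and the sensors. The fatty acid receptor gene Ffar1 ranged over 3.90, 4.23 and 4.94, the lipid receptor gene Gpr119 over 3.21, 3.47 and 3.98, and the irritant channel gene Trpa1 over 3.14, 3.50 and 4.31. No sensor of the list was therefore measured above the filter. The members nearest to it were Rfx6, with a largest group mean of 4.86, just outside, and Scg5 at 4.92 and Pax4 at 4.94, just inside.

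Other genes of the same pathways were counted from lists, in which no gene was called by limma between cKI and control ileum (in the order given here 2 of 10, 3 of 14, 1 of 17, 0 of 7 and 3 of 8 had an unadjusted p under 0.05). Of all genes tested, 13.4% were called higher and 7.91% lower in wild-type jejunum than in ileum, and 5.17% higher and 7.65% lower in cKO than in wild-type jejunum. Of 10 tested lineage factors beyond the members, 2 were lower in wild-type jejunum than in ileum and 2 were higher in cKO than in wild-type jejunum. They were Foxa1, a forkhead factor of secretory cells (-1.36 ± 0.12, then 1.23 ± 0.12), and Tox3 (-0.84 ± 0.20, then 0.97 ± 0.20), and these comparisons share the wild-type jejunal arrays. Of 14 genes of secretory fate and Notch signalling, 2 were higher and 3 lower in jejunum, and 3 were higher and 2 lower in cKO jejunum. Atoh1, the factor that commits cells to the secretory fate, gave -1.08 ± 0.10 and 0.59 ± 0.10. The Notch ligand gene Dll1 gave 1.21 ± 0.15 and -0.75 ± 0.15.

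Atoh1 also belongs to goblet cells, whose 6 tested markers had 5 lower in jejunum and 3 higher in cKO jejunum, and their part in its difference was not tested. Of 17 further granule and exocytosis genes, 1 was higher and 5 lower in jejunum, and 5 were higher and 1 lower in cKO jejunum. The carboxypeptidase gene Cpd gave -0.98 ± 0.16 and 0.82 ± 0.16. Slc18a1, the vesicular monoamine transporter of enterochromaffin cells, gave 0.90 ± 0.15 and -0.74 ± 0.15. Of 7 further sensors, 2 were higher and 2 lower in jejunum and 1 higher in cKO jejunum, and this was the fatty acid receptor gene Ffar4 (-0.66 ± 0.11 and 0.76 ± 0.11).

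Of 8 genes of serotonin and incretin turnover, 4 were higher in jejunum and 2 lower in cKO jejunum. Maob, a monoamine oxidase, gave 3.11 ± 0.38 and -1.58 ± 0.38, and Maoa gave 0.92 ± 0.15 and -0.77 ± 0.15. Among further hormones only Adm, Npw and Ppy were tested. None was called by limma in the comparisons of region, knockin or knockout or in the combined contrast, where 0, 0, 1 and 1 of the 3 had an unadjusted p under 0.05.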

How the data were processed

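Per the submitters' processing notes the authors used Partek, and the deposited values are log2 signals, 1 for each of 35556 transcript clusters. The log2 scale was read from their range. The Partek version, background correction and normalization are not given in the sources used here. Array medians lay between 4.82 and 5.0, and the values were used as deposited. Of the clusters 21789 had a single symbol in the platform annotation, 1621 had several and 12146 had none or were absent. Of 19938 symbols, 999 had several clusters (among members, Etv1).

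All 15 arrays entered 1 linear model with a mean for each group (R 4.3.3, limma 3.58.1, lmFit and eBayes, 10 residual degrees of freedom). Tests were two-sided. A gene was tested if its largest group mean exceeded 4.91, which removed 8154 genes, and called if its Benjamini-Hochberg adjusted p over the 11784 tested was under 0.05. A fold is 2 to the power of the log2 difference, and none is given where a group mean was under 4.91. The steps were tested on simulated data.

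All members are named in the comparisons, with per-array values for those called anywhere and for each tested hormone. Of each other list up to 4 called genes with the smallest p may be named. Members and lists were chosen with earlier results of these data known.

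The labels do not say what replicate numbers mark. After group means were removed, equally numbered arrays correlated across genes by 0.334, 0.216 and 0.161 for the wild-type regions and by 0.128, 0.177 and 0.258 between cKI and control ileum, above a limit of 0.1, and were taken as pairs there. The fit over all arrays that gave the main tests did not use these pairs. The replicate number entered only as a block among the alternatives. Between cKO and wild-type jejunum the values were 0.185, -0.0247 and -0.0732.

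Alternatives were quantile normalization, centring, no or a stricter level filter, the mean of a gene's clusters, only the arrays compared, array weights, an intensity trend, the replicate number as a block, leaving out each array, and, added after the data were seen, the stromal mean as a covariate.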

Additional observations from a re-analysis of the deposited data

Results flagged for a closer look

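The effects of the knockin and of the sign-turned knockout differed by 1.80 on the log2 scale for Ghrl (limma, adjusted p = 0.00409), since cKI ileum stood -0.07 from control ileum and cKO jejunum 1.87 above wild-type jejunum. They differed by 1.69 for Gata4 (adjusted p = 0.00286), whose signal was 1.38 higher in cKI than in control ileum and 0.31 higher, adjusted p = 0.322, in the jejunum labelled cKO than in wild-type jejunum. What part the probes of the Gata4 transcript cluster have in this was not tested.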

How the results depend on the processing

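No difference of a called member changed sign under any alternative. With only the arrays compared, all genes called went from 90 to 19 between cKI and control ileum, from 1510 to 979 between cKO and wild-type jejunum and from 601 to 299 between cKO jejunum and wild-type ileum, and members lower in cKI ileum than in wild-type jejunum from 2 to 1. Array weights gave 3967 genes for jejunum against ileum in place of 2507, 766 for cKI against control in place of 90, 2061 for the combined contrast in place of 1346, and 819 for the difference between knockin and sign-turned knockout in place of 346. They also gave 8 members higher in jejunum in place of 4, and 3 higher in cKI ileum in place of 0. Without the level filter 52 genes were called between cKI and control ileum.

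The stromal covariate gave 1597, 13 and 590 genes for jejunum against ileum, cKI against control and the combined contrast. It left 1 member lower in jejunum in place of 3, 2 lower in the combined contrast in place of 4 and 5 higher in control than in wild-type ileum in place of 8, and made 1 lower in cKO jejunum than in wild-type ileum.

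With the replicate block and only the arrays compared, 55 genes were called between cKI and control ileum and 2061 between control and wild-type ileum in place of 3290. In that fit 5 members were higher in control than in wild-type ileum and 1 was lower in cKO jejunum than in wild-type ileum. The block over all arrays called Ghrl between the wild-type regions (adjusted p = 0.0384). The numbers did not pair the arrays of cKO and wild-type jejunum, where the block took the call of Cck.

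Leaving out single arrays gave 3 to 7 members higher in jejunum than in ileum, 1 to 3 lower in cKO than in wild-type jejunum, 5 to 8 higher in control than in wild-type ileum, 0 to 1 lower in cKO jejunum than in wild-type ileum, 1 to 3 lower in cKI ileum than in wild-type jejunum and 0 to 1 lower in the difference between knockin and sign-turned knockout. Over all genes it gave 20 to 176 calls for cKI against control, 984 to 1532 for cKO against wild-type jejunum, 279 to 592 for cKO jejunum against wild-type ileum and 176 to 575 for that difference. The cause of these shifts was not tested. Members near the level filter (Scg5, Neurod1, Pax4 and Cpe) have signals close to the median of the table, and 3 arrays a group bound every comparison.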
